A study of Drosophila melanogaster with 2 samples.

Results

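The gene br (broad, also called the Broad-Complex, FBgn0283451) lay on the plus strand of the X chromosome at chrX:1575132-1664869 (dm6), a span of 89.7 kb with 16 annotated transcripts and 9 distinct start sites. Regions were assigned to it when their summit, the position of highest enrichment, fell in the gene or within 1 kb of it. By this rule br held 13 of the 4797 peaks in the authors' thresholded list and 92 of the 30000 regions in the pooled relaxed list. Of all pooled regions, 16.0% were also in the thresholded list. The replicates' own relaxed lists, of 30000 regions each, put 85 (replicate 3) and 90 (replicate 4) regions there. The gene was chosen with its peaks known, so the values below describe the locus and were not tested.

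The data came from ChIP-seq on whole wandering third-instar larvae of Drosophila melanogaster, males and females pooled. The larvae carried a transgene for the orphan nuclear receptor Hr83 with eGFP at its C-terminus, and chromatin was precipitated through the GFP tag. The only group was Hr83-GFP larvae of 1 transgenic line, as biological replicates numbered 3 and 4; how the replicates were collected is not stated in the labels, nor is their age. A fragment size range of 200 to 300 bp was recorded for replicate 3 only. The files gave a signal per region without read counts, so depth is unknown. In whole larvae, occupancy in few cells and weak occupancy in many cannot be told apart, and which tissue gave a peak was not measured.

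The protein products of br are transcription factors that share an N-terminal BTB domain, a protein contact module, and differ in the C2H2 zinc fingers joined to it by alternative splicing. br is a classic early gene of the steroid hormone ecdysone: it makes the early puff of the salivary gland polytene chromosomes at 2B5, and its products turn late genes on or off as the larva becomes a pupa. Larvae without br function do not pupariate. The wandering stage sampled here comes just before this transition, when the hormone titre rises.

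The thresholded peaks are numbered 1 to 13 from the 5′ end of br. The sequences that carry the results are the 200 bp around the summit of the 3 strongest (peaks 4, 9 and 8), of those just upstream of the br-RC and br-RS starts (peaks 5 and 10), and of peak 2, which with peak 10 held the extended hexamer AAAAGTCA. They are given on the plus strand of dm6 from the RefSeq copy of the assembly. For peak 9 the window stops at the first Mur2B exon, which is not shown. Capitals mark matches to any of 9 motifs, searched on either strand. One group is known from promoters and open chromatin: GAGAGAG, the element bound by the GAGA factor Trl, and the CA repeat CACACACA. The housekeeping promoter elements were the DRE TATCGATA and Motif 1, GTCACACT. Nuclear receptors of different subfamilies are known to bind hexamers such as AAGTCA and, in another subfamily, AGGTCA; the longer form searched was AAAAGTCA. The AP-1 factor site was TGACTCA. For GATA factors the search used the letters TGATAA. Each match to the longer form also counts as a match to the shorter one.
Peak 2, chrX:1578186-1578385: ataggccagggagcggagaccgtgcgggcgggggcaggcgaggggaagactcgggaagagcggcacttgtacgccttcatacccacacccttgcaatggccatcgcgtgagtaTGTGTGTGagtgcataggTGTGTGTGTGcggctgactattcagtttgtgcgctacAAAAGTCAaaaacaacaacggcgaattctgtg
Peak 4, chrX:1595786-1595985: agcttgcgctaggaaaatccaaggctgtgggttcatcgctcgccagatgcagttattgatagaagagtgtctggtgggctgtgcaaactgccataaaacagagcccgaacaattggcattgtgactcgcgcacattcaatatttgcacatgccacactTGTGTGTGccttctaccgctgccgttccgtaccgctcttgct
Peak 5, chrX:1610042-1610241: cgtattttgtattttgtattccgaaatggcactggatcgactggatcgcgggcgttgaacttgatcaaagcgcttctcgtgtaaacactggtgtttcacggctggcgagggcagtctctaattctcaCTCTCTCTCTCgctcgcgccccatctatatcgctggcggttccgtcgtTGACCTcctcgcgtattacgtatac
Peak 8, chrX:1616948-1617147: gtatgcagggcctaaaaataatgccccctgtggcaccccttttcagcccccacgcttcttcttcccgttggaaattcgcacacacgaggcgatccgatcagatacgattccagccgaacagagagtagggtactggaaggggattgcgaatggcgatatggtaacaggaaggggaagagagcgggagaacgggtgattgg
Peak 9, chrX:1618156-1618289: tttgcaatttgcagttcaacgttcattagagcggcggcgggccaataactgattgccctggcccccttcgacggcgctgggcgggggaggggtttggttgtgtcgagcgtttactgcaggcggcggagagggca
Peak 10, chrX:1622088-1622287: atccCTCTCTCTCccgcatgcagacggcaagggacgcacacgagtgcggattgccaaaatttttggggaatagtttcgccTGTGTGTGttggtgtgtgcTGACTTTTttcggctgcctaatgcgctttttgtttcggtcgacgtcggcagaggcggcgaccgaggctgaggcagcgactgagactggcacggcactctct

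The strongest region at br, peak 4, was isolated among the thresholded peaks, with weaker pooled regions around it. It spanned chrX:1595821-1595947, 20.8 kb downstream of the most 5′ start, inside the first intron of br-RN and br-RO, the only 2 of the 16 transcripts that reach this far. Its signal was 256 in the pooled list, 118 in replicate 3 and 137 in replicate 4, and the nearest br start, that of br-RH, lay 12983 bp further downstream. It ranked 172 among the 4797 thresholded peaks, 157 in replicate 3 and 236 in replicate 4. It was the highest region of br in all 3 lists, and the next thresholded peaks lay 16822 bp upstream and 14256 bp downstream.

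Peaks 9 and 8, the next strongest, lay 1142 bp apart, peak 9 at 43.1 kb and peak 8 at 41.9 kb from the most 5′ start. Peak 9 (chrX:1618062-1618317) had a signal of 150 in the pooled list, 49.98 in replicate 3 and 72.8 in replicate 4, with ranks of 1564 in replicate 3 and 1460 in replicate 4. Its summit was 35 bp from the internal start of Mur2B, which encodes a mucin-related protein, and 4118 bp from the nearest br start. Peak 8 (chrX:1616969-1617060) had a signal of 140 in the pooled list, 62.5 in replicate 3 and 61.6 in replicate 4, with ranks of 928 in replicate 3 and 2103 in replicate 4. Peak 8 ranked ahead of peak 9 in replicate 3 and behind it in replicate 4, so their order differed between replicates. Peak 8 lay 1107 bp from the same Mur2B start and 3391 bp from the br-RI start.

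**Figure D1:**
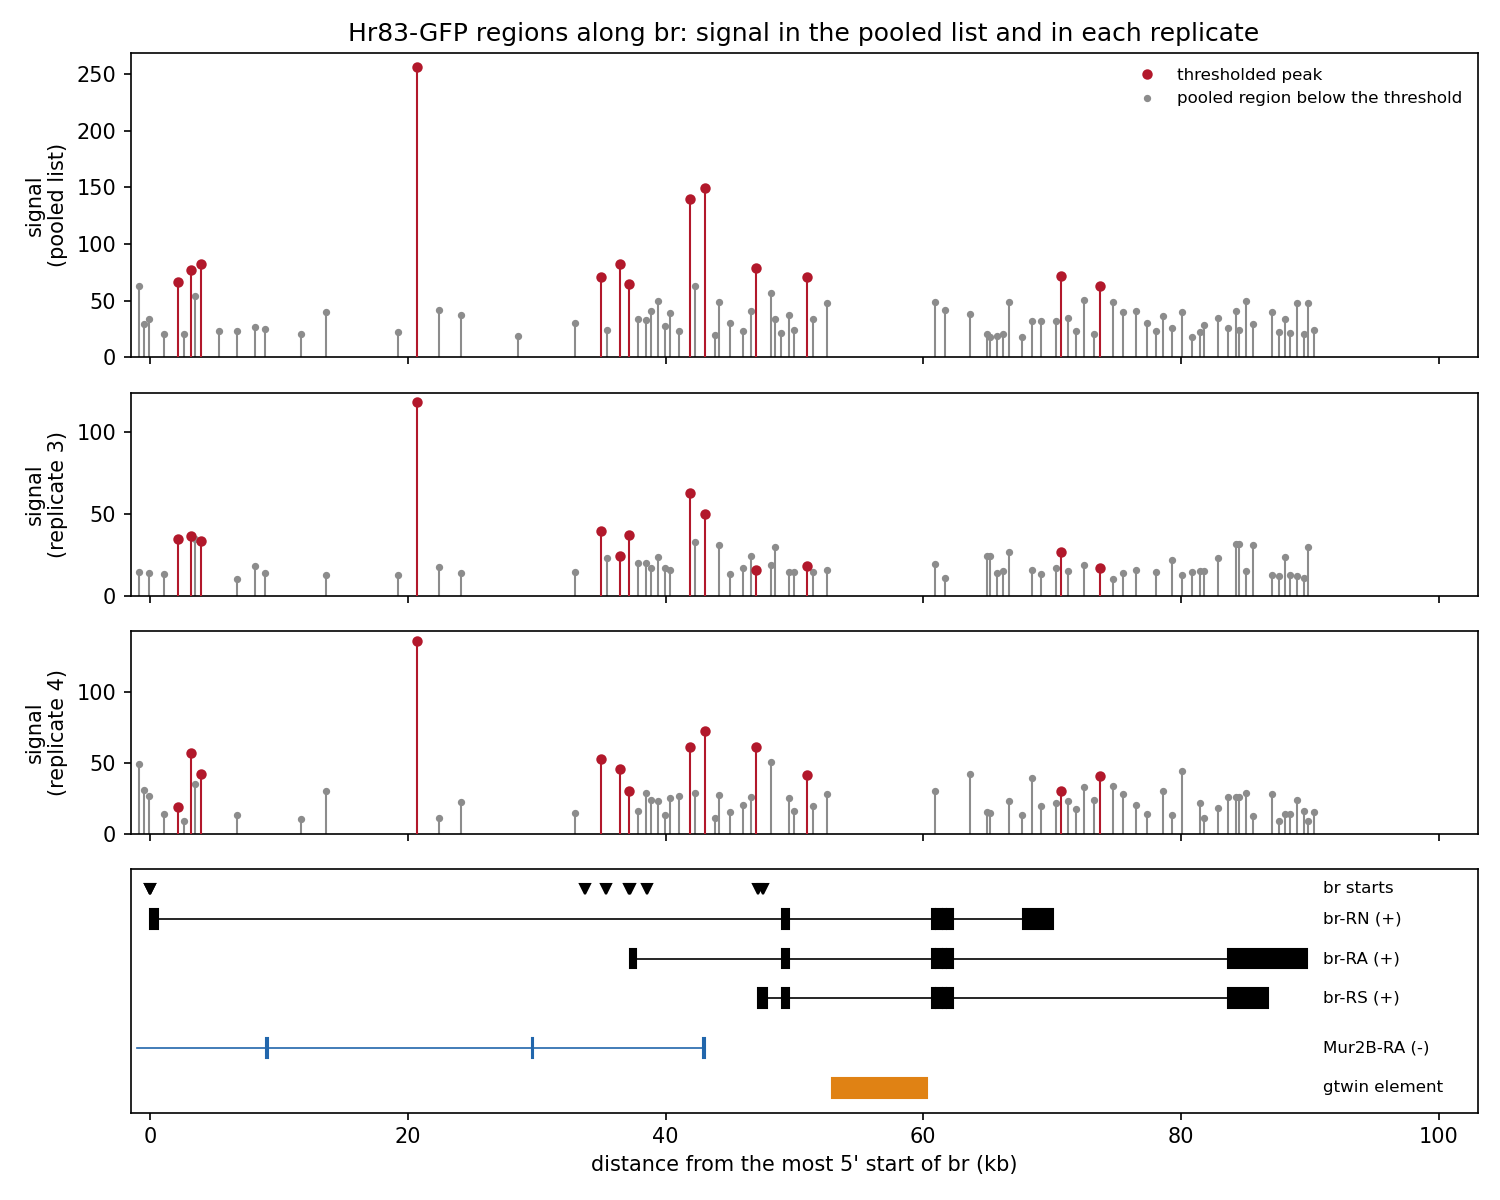
Signal of the 92 pooled relaxed regions along br, in kb from its most 5′ start, in the pooled list (top) and for the matching region in replicate 3 and replicate 4. Red stems are the 13 thresholded peaks and grey stems the other regions; the lowest panel shows the br starts, 3 br transcripts, Mur2B-RA on the opposite strand and the gtwin element. Peak 4 at 20.8 kb was the highest in each list, and no region lay in gtwin.

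Mur2B runs on the minus strand over the whole of br (chrX:1523554-1668788), so each of the 92 pooled regions and 13 peaks also lay within Mur2B. Of its transcripts only Mur2B-RC spans all of br. Mur2B-RA and Mur2B-RB begin at the internal start, at 1618155, so peaks 9 to 13 lay upstream of both. ChIP-seq regions carry no strand, and apart from position nothing in the lists assigns an intronic region to one gene or the other. Outside br and its flanks Mur2B added 1 thresholded peak and 14 pooled regions. None of the 13 summits lay in a Mur2B exon. The only other gene within the flanks was dor (deep orange), which encodes a lysosomal trafficking protein and starts 183 bp after the end of br. At that start replicate 3 had a region 26 bp away with a signal of 29.4 and rank 4312, while the nearest region of replicate 4 had a signal of 9.16 and rank 28421. The pooled region there (signal 48.0) was below the threshold.

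At the br starts themselves, peaks were few and modest. A thresholded summit lay within 500 bp of a br start for 3 of the 13 peaks, and counting Mur2B for 4 of 13 near any start, against 64.3% of the whole thresholded list. Peak 5 lay 370 bp upstream of the br-RC start, with a signal of 71.3 in the pooled list, 39.3 in replicate 3 and 53.0 in replicate 4. Peak 7 lay 42 bp upstream of the br-RP start, with a signal of 65.0 in the pooled list, 37.2 in replicate 3 and 30.5 in replicate 4. It was also 75 bp upstream of the next start, which is shared by 8 transcripts, br-RA and br-RB among them. Peak 10 lay 120 bp upstream of the br-RS start and had the largest ratio between replicate ranks of the 13: its signal was 78.8 in the pooled list, its rank 12352 in replicate 3, with a signal of 15.7, and 2114 in replicate 4, with a signal of 61.5.

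The remaining starts had only pooled regions below the threshold, or no pooled region, within 500 bp. The most 5′ starts, of br-RN and br-RO, had pooled regions of at most 62.6 in the kb upstream, the nearest 105 bp from the br-RN start with a signal of 34.3. At the br-RI start a region 68 bp away had a signal of 32.6, and another 344 bp away had 41.1. The br-RH and br-RM starts had no pooled region within 500 bp, the nearest being 795 and 544 bp away. In the replicates' own lists, only replicate 4 had a region within 500 bp of the br-RH start. Only replicate 3 had one near the br-RM start. In all, 4 of the 9 starts had a thresholded summit within 500 bp and 7 had a pooled one. Neighbouring starts shared regions: peak 7 counted for both the br-RP start and the next one. The same pooled regions counted for both br-RN and br-RO. A share over all annotated starts is not given, so these counts describe br alone.

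The other peaks were intronic, except the weakest. Peaks 1, 2 and 3 formed a group in the first intron of br-RN and br-RO, 2.16 to 3.93 kb from the most 5′ start, with pooled signals of 66.1, 77.4 and 82.1. Peak 2 ranked 2977 in replicate 3 and 2472 in replicate 4, and peak 3 ranked 3494 in replicate 3 and 4221 in replicate 4, whereas peak 1 ranked 3266 in replicate 3 and 12627 in replicate 4. Peak 6 (signal 82.6) lay 747 bp upstream of the br-RP start. Peak 11 (71.3) lay in the intron that follows the first exon shared by all transcripts, and peak 12 (71.9) between a pair of the alternative last exons. Peak 13 (63.4) lay in a coding stretch of a last exon used by 6 transcripts and had the highest GC content of the 13, at 70.7%.

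Grouped by the architecture of the gene, the peaks gathered where most of the starts are. The 15.3 kb from the br-RH start to the first shared exon, which holds 7 of the starts, carried 6 of the 13 peaks, or 0.393 per kb. Of these 6, peaks 5, 7 and 10 lay within 500 bp of a br start, while peaks 8 and 9 were nearer the internal Mur2B start. The 33.7 kb before this stretch, from the most 5′ start up to the br-RH start, carried 4 peaks, or 0.119 per kb. The 13.2 kb stretch of shared exons, which encodes the BTB domain, carried 1 peak, or 0.0758 per kb. Without gtwin, a retrotransposon copy of 7.41 kb within it, the density of this stretch was 0.173 per kb. The 27.5 kb of alternative 3′ exons, which encode the zinc fingers, carried 2 peaks, or 0.0726 per kb. The X chromosome as a whole carried 635 thresholded peaks, 0.0270 per kb.

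The relaxed regions were spread differently. The alternative 3′ part held 39 pooled regions, 1.42 per kb, close to the 1.51 per kb of the proximal start region, where there were 23. The thresholded list held 2 of the 39 (5.13%) and 6 of the 23 (26.1%), against 16.0% of all pooled regions. Over br as a whole the share was 13 of 92, or 14.1%. The 3′ part held 37 regions in replicate 3, or 1.34 per kb, and 36 in replicate 4, or 1.31 per kb. The proximal start region held 1.38 per kb in replicate 3 and 1.51 per kb in replicate 4. The last exon of br-RA and br-RL, 6.08 kb long, held 11 pooled regions with a highest signal of 49.4. In br-RS this exon ends earlier, at 1661839. The last exon that holds peak 13, in its longest form (br-RB), held 7.

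**Figure D2:**
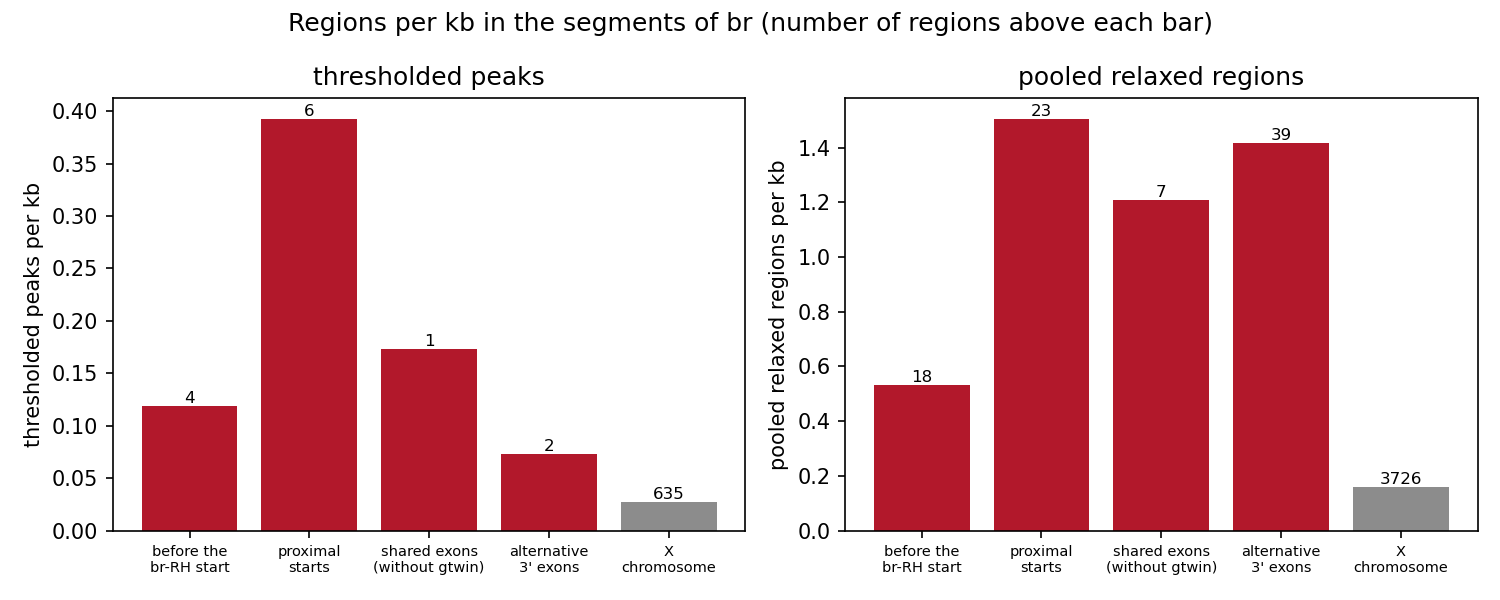
Thresholded peaks (left) and pooled relaxed regions (right) per kb in 4 segments of br, with the X chromosome at the right of each panel and the number of regions above each bar. The length of gtwin was left out of the shared exons. The proximal start region was highest for thresholded peaks (0.393 per kb), while the alternative 3′ exons came close to it for pooled regions (1.42 against 1.51 per kb).

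One stretch of br, the gtwin element, held no summit in any list. Between the pooled summits at 1627646 and 1636059, a gap of 8413 bp, no other pooled summit lay. The gap covers gtwin, a retrotransposon copy of 7411 bp inserted in the intron after the first shared exon. The median distance between neighbouring pooled summits at br was 686 bp, and the next longest gap was 5594 bp. Whether reads from this repeat could be placed was not tested, since no alignments were used.

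By height, the br peaks were mostly low in the thresholded list. Their median signal was 77.4, against 93.8 over the whole list, and 3 of the 13 (peaks 4, 8 and 9) were among its 2398 strongest. The deposited −log10 q-value was at its ceiling of 3.86 for 7 of the 13 and for 74.9% of all thresholded peaks. Over all pooled regions the order was the other way, with a median of 33.8 at br, 28.6 in the list and 30.1 on the X chromosome. Peak 13, the weakest inside the threshold, had a signal of 63.4, and the strongest regions outside it had 62.9 (699 bp from the internal Mur2B start) and 62.6 (837 bp upstream of the br-RN start). By replicate, the first of these ranked 3605 in replicate 3 and 7349 in replicate 4, and the second 14592 in replicate 3 and 3268 in replicate 4.

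Each of the 13 peaks overlapped a region in both replicates' relaxed lists, as did 97.8% of all thresholded peaks. The thresholded list was made from both replicates, so this is not independent evidence. The replicates' summits lay a median of 18 bp (replicate 3) and 7 bp (replicate 4) from those of the thresholded peaks. The largest distances were 106 bp in replicate 3, at peak 2, and 63 bp in replicate 4. Counting only the 4797 strongest regions of each replicate, 8 of the 13 were found in replicate 3 (76.3% of all peaks) and 10 in replicate 4 (80.6%). Found in both were 6 of 13, peaks 2, 3, 4, 5, 8 and 9, against 60.9% of all thresholded peaks. Peak 12 was among the strongest of neither, with ranks of 5001 in replicate 3 and 6893 in replicate 4. Spearman's rho between the replicate ranks over the 13 peaks was 0.49, given as a description of peaks that share their libraries.

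**Figure D3:**
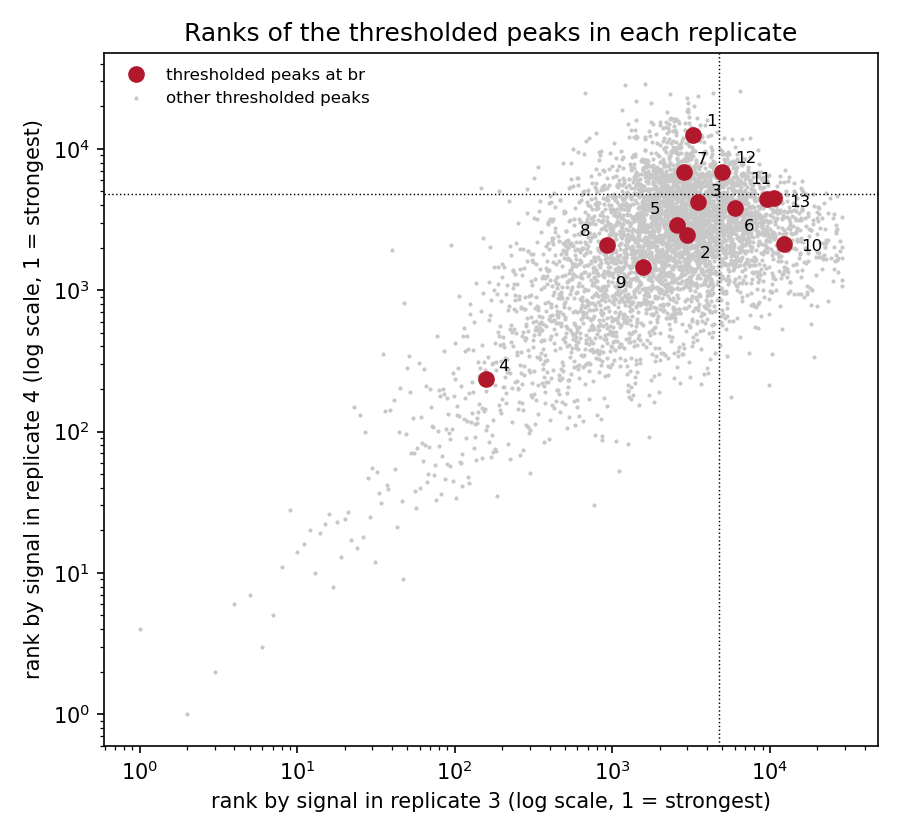
Rank by signal of each thresholded peak in replicate 3 and replicate 4 (log scales, 1 is strongest), with the 13 br peaks in red, numbered from the 5′ end, and all others in grey. Dotted lines mark rank 4797; 6 br peaks lay within it in both replicates, with peak 4 at 157 and 236.

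Each replicate's strongest regions at br included some outside the thresholded list. Replicate 3 had 7 among its 4797 strongest that overlapped no thresholded peak, 3 of them in the last exon of br-RA or at the dor start. Replicate 4 had 6, the highest of them a region with its summit at 1623298 (signal 50.9, rank 3125), between the br-RM start and the first shared exon. The matching replicate 3 region ranked 9340. Of the 79 pooled regions at br outside the thresholded list, 53 overlapped a region in both replicates and 3 in neither. By annotation, 61 of the 92 pooled regions were intronic, 16 lay in UTR exons and 10 in coding exons. Shares over the whole lists are not given for the counts in this paragraph, so they describe br alone.

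In the 200 bp windows, CACACACA was found at 6 of the 13 peaks (1, 2, 4, 7, 10 and 12), against 10.6% of all thresholded peaks. GAGAGAG was found at 5 of 13 (3, 5, 9, 10 and 11), against 12.0%. Among the thresholded peaks of the X chromosome each of these motifs was found at 14.3%. Only peak 10, at the br-RS start, held both, and both are capitals in its sequence. With 100 bp windows CACACACA was found at 4 of the 13 peaks, against 5.38% of all thresholded peaks, and GAGAGAG at 2, against 6.73%. Peaks 6, 8 and 13 held none of the 9 motifs, although 10 of the 13 held at least 1, against 48.9% of all peaks. Deposited regions at br had a median GC content of 54.3%, against 44.1% over the whole list, and the motif counts were not adjusted for base composition.

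In the 200 bp windows, the nuclear receptor hexamers were found at 3 of the 13 peaks. AAAAGTCA and with it AAGTCA were found at peaks 2 and 10 only, 2 of 13, against 1.38% and 8.65% of all peaks. Replicate 3 was weak at both matches. Its region at peak 2 (chrX:1578060-1578299) ended before the AAAAGTCA, and its region at peak 10 ranked 12352. AGGTCA was found at 1 peak, peak 5, against 3.00%. The housekeeping promoter elements TATCGATA (6.48% of all peaks) and GTCACACT (3.84%) and the AP-1 site TGACTCA (2.54%) were found at 0 of 13, and TGATAA at peak 3 alone (14.2%). Of the 3 strongest peaks, peak 8 had no match, peak 9 had a GAGAGAG within the first Mur2B exon, and peak 4 had a single CA repeat. These matches describe the letters in the window and not binding.

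Among protein-coding genes br was one of the richest in regions. Its 13 peaks were matched or exceeded at 0.0574% of 13945 genes, those being br itself and Eip75B, sbb, tara, EcR, Eip74EF, Mur2B and ush. At least 1 peak was found at 32.6% of all genes and at 56.6% of the 369 genes whose span was 0.5 to 2 times that of br. Among those 369 genes the median was 1 thresholded peak and 11 pooled regions, 1.90% had 13 peaks or more, and br had the highest number of pooled regions per 10 kb (10.03 against a median of 1.39). For thresholded peaks per 10 kb it had rank 14 among these, with 1.42 against a median of 0.108. The strongest peak was higher at 272 genes than at br.

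**Figure D4:**
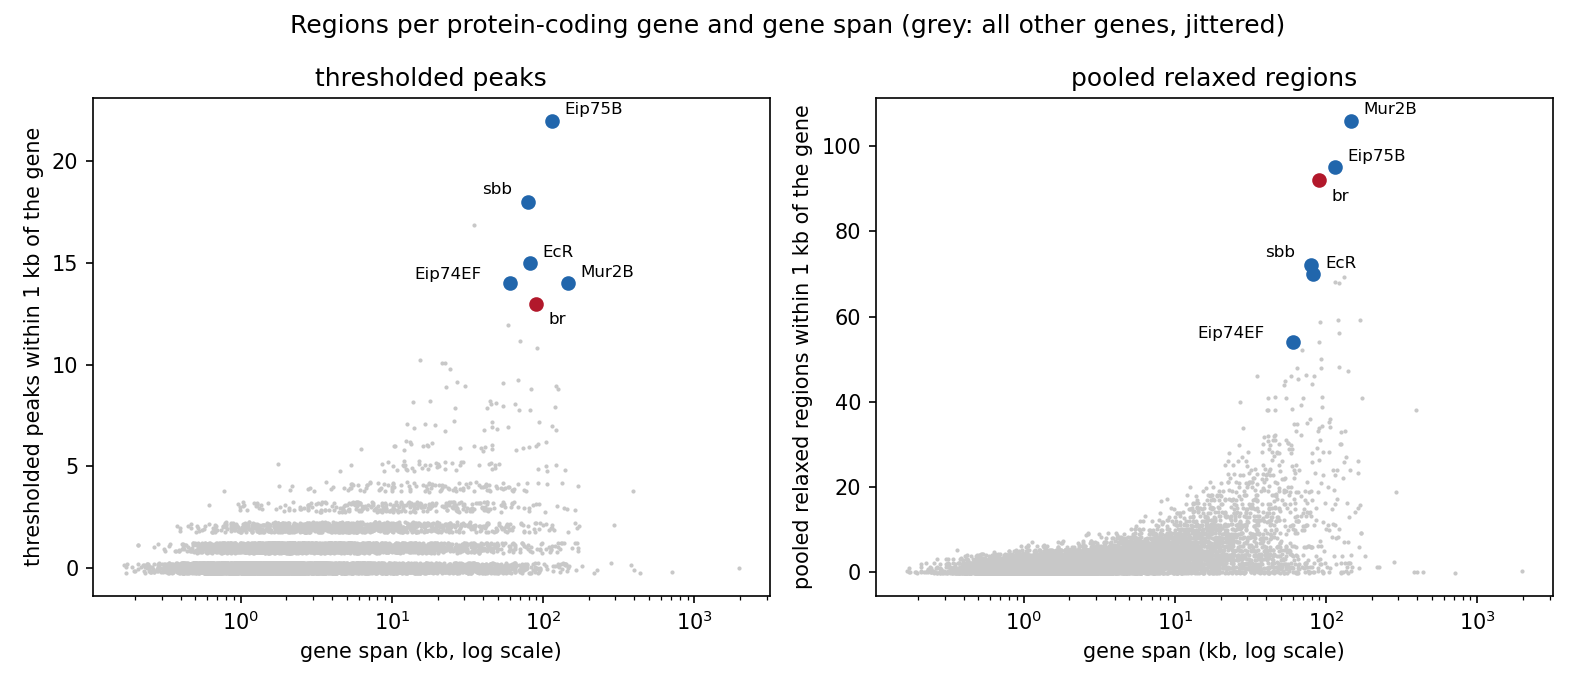
Number of thresholded peaks (left) and pooled relaxed regions (right) in or within 1 kb of each protein-coding gene, against gene span in kb on a log scale. br is red with 13 and 92; Eip75B, EcR, Eip74EF, Mur2B and sbb are blue, and all other genes are grey with a small vertical jitter.

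The genes most like br by these counts were Eip75B, Mur2B and EcR, of which Mur2B overlaps br and shares its regions. Likeness was the summed difference in the numbers of thresholded peaks and pooled regions, among genes of 0.5 to 2 times the span. br had 13 peaks and 92 regions, Eip75B 22 and 95, and EcR 15 and 70. Eip75B encodes a nuclear receptor of the early ecdysone response and EcR the ecdysone receptor. A further early gene, the ETS factor gene Eip74EF, had 14 peaks among 54 regions. The share of pooled regions in the thresholded list was 14.1% at br, 23.2% at Eip75B, 21.4% at EcR and 25.9% at Eip74EF. When likeness was taken per length, brat and sbb took the places of Eip75B and Mur2B.

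Across the ecdysone regulators, 17 of the 19 genes matched in the annotation had at least 1 thresholded peak, against 32.6% of all protein-coding genes and 56.6% of those of a span similar to br. The median span of the list was 33.4 kb. The highest signals were at Eip75B (350), Eip74EF (219), the bZIP gene vri (219) and the zinc finger gene crol (193), against 256 at br. The regulators without a peak were usp, which encodes the partner of the ecdysone receptor, and Eip93F, which encodes the factor of the adult stage that follows br. The genes known to act after br, such as the glue genes of the salivary gland, had a median span of 1.14 kb. Of these, 6 of 16 had a peak, a share near the 32.6% of all protein-coding genes, which were not matched for span. They were Sgs5 (240), Sgs1 (217), Sgs7 and Sgs8 (81.3, the same peak), the caspase gene Dronc (69.5) and the cell death gene hid (67.4, named outside the rule of 4 per list). Of 15 listed genes that encode BTB domain proteins, 12 had a peak, against 32.6% of all protein-coding genes and 56.6% of those of a span similar to br. The median span of this list was 50.4 kb, and none of its genes had as many peaks as br. The highest in that list were lola (189), mod(mdg4) (154), chinmo (136) and Trl (135).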

How the data were processed

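ChIP-seq region lists of 1 group, Hr83-GFP larvae with replicates 3 and 4, were taken as deposited on dm6. Per the deposited notes, the authors called relaxed lists per replicate and on both pooled, each with a control, and made the thresholded list from these by irreproducible discovery rate. Software for alignment and calling was not given in the sources used here. Heights are the authors' signal values, compared only within 1 list because its scaling between lists is not stated. Ranks use signal, as the authors' −log10 q-value reaches a ceiling. The dm3 lists were not used.

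Positions were compared with Ensembl release 115 genes and the RefSeq sequence of the same assembly, on which all 16 br start codons read ATG. Regions matched between lists when they overlapped by at least 1 bp. Motifs were searched on both strands. Python 3.11.15 and pandas 2.3.3 were used. The counting was tested on simulated regions. No test was made and no p-value computed.

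The members and lists were chosen with earlier results of these data known. Named were br, genes overlapping it, the 3 most like it and up to 4 per list with the strongest peak; other genes with at least as many peaks as br, the regulators without a peak and genes alike per length were named after their values were seen. Sequences were chosen after the peaks were seen. let-7-C and Eip71CD matched no protein-coding gene, and the Eig71E genes, entered in the secondary gene list under a misspelled family name, were not counted.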

Additional observations from a re-analysis of the deposited data

How the results depend on the processing

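The number of thresholded peaks at br was 13 in the gene without flanks and by any overlap, 14 with flanks of 5 kb, and 3 among the 2398 strongest. The 4797 strongest regions of 1 replicate at a time put 15 (replicate 3) and 16 (replicate 4) regions at br. Of these, 7 in replicate 3 and 6 in replicate 4 overlapped no thresholded peak. From 1 replicate at a time the pooled count of 92 became 85 to 90 and the rank of the strongest peak 157 to 236. The count at a br start became 2, and the count with a motif 9 to 11. Of the 3 genes most like br, 1 remained when likeness was taken per kb, and of the genes acting after br, 2 instead of 6 had a peak among the 2398 strongest. The other alternatives moved no count by more than 1.5 times, except in 100 bp windows. There GAGAGAG was found at 2 peaks instead of 5, AAAAGTCA and AAGTCA each at 1 instead of 2, and AGGTCA at 0 instead of 1. Alternatives for single replicates at starts and motifs, and those for the gene lists, were chosen after seeing the data. No paired analysis was possible because there was 1 group and no test. Depth is unknown, so what it limits could not be measured.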
